A study of Homo sapiens with 8 samples.

Results

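EBP, SC5D and DHCR7 encode the sterol isomerase, desaturase and reductase that complete the ring system of cholesterol. The genes were taken by name from the table of gene counts, with earlier results of these data known, and make up 3 of its 60230 genes. All 3 were among the 13400 genes that passed the filter on low counts and were tested. EBP, SC5D and DHCR7 were lower in all 6 libraries of treated cells than in both libraries of control cells. With compounds 4 and 5, all 3 genes fell past the threshold (an adjusted p under 0.05), to between 33.8% and 53.1% of the control level. With compound 6, the levels were between 51.7% and 60.8% of the control, and 1 of the 3 genes, EBP, was past the threshold in the edgeR fit of all libraries. That count depended on the fit, with 3 genes called by DESeq2 and 0 with the replicate block.

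Cholesterol is made in the endoplasmic reticulum in a long chain of steps, from acetyl-CoA through mevalonate to squalene, which is closed to lanosterol and then stripped of methyl groups. EBP, the emopamil-binding protein, then shifts a double bond within the second ring, SC5D, the sterol-C5-desaturase, adds another one, and DHCR7, the 7-dehydrocholesterol reductase, removes the double bond that EBP had placed. Hepatocytes make much of the body's cholesterol, and the genes of the pathway are switched on together by the transcription factor SREBP-2 when the membranes hold little sterol. The product of SC5D, 7-dehydrocholesterol, is also the precursor from which vitamin D is formed in skin.

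All samples were HepG2 cells, a line from a human liver tumour, that overexpressed CYP2C19, a cytochrome P450 enzyme of drug metabolism, and were grown with blasticidin. The control group received 0.2% DMSO, and the other groups received compound 4, 5 or 6, which are antioxidants used in plastics, for 24 h. Each compound was given at its own IC50. The paper describes these values as rather comparable for compounds 4, 5 and 6, so the doses were close but not equal. The 8 libraries formed 4 groups of 2, and the labels name the samples within a group day 1 and day 2. Compounds 4 and 6 are methylene-bridged bisphenols with methyl groups on the rings, and compound 4 carries tert-butyl groups where compound 6 carries cyclohexyl groups. Compound 5 also has linked phenol rings and carries a pair of tert-butyl groups on each of them. Cells without the overexpressed gene were not part of the comparison, and nothing in the sources says whether the replicates were separate cultures, so the p-values measure the spread between these samples.

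Between 9791659 and 17814595 counts per library were assigned to genes. The counts of EBP, SC5D and DHCR7 ranged from 400 to 3969, where counting alone gives a coefficient of variation of 1.59% to 5%. Over all genes, samples of the same group differed beyond this counting error, with a mean chi-square per gene of 8.2 to 19.07. The 9 hepatocyte markers examined were all detected, and their summed level was 50664 to 54654 CPM (counts scaled to the library total, with TMM factors) in the control libraries and 34999 to 44734 CPM in the treated ones. This marker sum was thus lower in every treated library, as EBP, SC5D and DHCR7 were, and its part in their values was not tested. The sum rests on a few very abundant markers, and the 9 genes did not move as one. With compound 4, AFP, APOA1, APOB and TF were called lower (log2-fold changes −0.71, −0.90, −0.61 and −0.52), whereas HNF4A and TTR had 0.09 and 0.25, not past the threshold. With compound 5, FGB was called higher (0.53, adjusted p = 0.03 in edgeR) and no marker lower. Of all genes tested, 3.91% were called lower with compound 4 and 5.35% higher with compound 5. With compound 6 no marker was called, while 5 of the 9, all with a lower mean, had an unadjusted p under 0.05 in edgeR. So had 2490 of all 13400 genes. The summed fibroblast markers (1 of 3 at 0) were at 5.02 to 9.22 CPM in the control and 7.63 to 25.4 CPM in the treated libraries, almost all of it PDGFRB, since COL1A2 was at 0 and COL1A1 had at most 1 count. PDGFRB was called higher with compound 4 (1.79, adjusted p = 0.0063) and had 0.43 and 1.05 with compounds 5 and 6, not past the threshold. Its part in the values of EBP, SC5D and DHCR7 was not tested. Other summed markers reached at most 1.60 CPM for blood cells (2 of 3 at 0), 2.08 CPM for endothelium (0 of 3 at 0) and 172 CPM for bile duct cells (1 of 3 at 0). The bile duct sum was almost all SOX9, since CFTR was at 0 and KRT7 had at most 1 count in a library. CYP2C19 was present in every library at 16.4 to 52.8 CPM, and with compound 5 it was higher than in the control (log2-fold change 1.05 ± 0.26, adjusted p = 0.04 in edgeR's quasi-likelihood test).

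The 3 genes lie apart in the genome. In GENCODE 29 on GRCh38, EBP (ENSG00000147155) is on the plus strand of chromosome X, from 48521158 to 48528716. SC5D (ENSG00000109929) is on the plus strand of chromosome 11, from 121292453 to 121308694. DHCR7 (ENSG00000172893) is on the minus strand of the same chromosome, from 71428193 to 71452868. Since the 3 genes were lower in the same libraries, the 250 bases before the first RefSeq start of each follow (RefSeq, GRCh38.p14), at chrX:48521558-48521807 on the plus strand, chr11:121292521-121292770 on the plus strand and chr11:71448394-71448643 on the minus strand. Letters in capitals mark matches, read on either strand, to the CCAAT box, to the GC box with the letters GGGCGG, and to the E-box with the letters CACGTG. Each of the windows also overlaps a first exon of another transcript of its gene in GENCODE 29.
EBP: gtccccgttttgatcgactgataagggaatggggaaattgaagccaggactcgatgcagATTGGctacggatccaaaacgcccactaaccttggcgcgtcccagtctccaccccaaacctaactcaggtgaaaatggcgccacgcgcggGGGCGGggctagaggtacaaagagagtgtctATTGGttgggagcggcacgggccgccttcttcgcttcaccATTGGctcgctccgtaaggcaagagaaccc
SC5D: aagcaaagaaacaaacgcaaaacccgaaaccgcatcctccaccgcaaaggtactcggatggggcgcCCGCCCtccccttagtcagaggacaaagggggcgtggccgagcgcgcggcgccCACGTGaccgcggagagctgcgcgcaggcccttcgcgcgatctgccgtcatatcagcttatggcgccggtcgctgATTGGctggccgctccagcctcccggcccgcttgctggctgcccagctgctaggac
DHCR7: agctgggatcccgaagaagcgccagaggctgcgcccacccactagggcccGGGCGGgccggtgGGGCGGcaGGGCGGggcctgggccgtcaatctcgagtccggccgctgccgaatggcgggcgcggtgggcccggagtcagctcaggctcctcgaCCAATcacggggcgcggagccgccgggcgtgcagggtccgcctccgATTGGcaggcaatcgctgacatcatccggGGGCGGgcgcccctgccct

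The letters CCAAT, the core of the box bound by NF-Y, were found in all 3 of these windows. SC5D and DHCR7 each have a second start in the RefSeq table, and the window before the second start of DHCR7, on the same strand, held 0 matches to any of the motifs, whereas that of SC5D overlaps its first window and held the same motifs 1 time each. EBP held 3 matches, of which the nearest began 30 bases before the start. DHCR7 held 2 matches, at 94 and 48 bases before it, and SC5D held 1, at 56 bases. Among 35093 windows of the same length in the RefSeq table, 32.0% held at least 1 match, 9.52% at least 2 and 2.92% at least 3. GGGCGG, a GC box, was present 4 times in DHCR7 and 1 time each in EBP and SC5D, and 42.6% of all windows held it. CACGTG, an E-box, was present in SC5D alone of the 3, against 6.34% of all windows. TCACNCCAC, a core of SREBP sites, had no match in the 3 windows and 0.883% of all windows held one. These are matches of letters in a fixed window, and G and C made up 57.6%, 66.8% and 75.2% of the bases in EBP, SC5D and DHCR7.

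In the control cells DHCR7 was the most abundant of the 3 per length of transcript. Its level per kilobase of exon was 85.1 ± 7.30 CPM (SD, n = 2), which was above that of 97.1% of the 13315 genes ranked. EBP followed with 32.3 ± 1.98 CPM per kilobase, above 91% of the genes, and SC5D had 13.1 ± 0.215 CPM per kilobase, above 76.8%. The order DHCR7, EBP, SC5D per kilobase was the same in all 8 libraries, with no overlap between the genes within a group.

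EBP, which also binds the drug emopamil after which it is named, was at 74.4 and 81.1 CPM in the control libraries. Its level was 37.6 and 32.2 CPM with compound 4, 35.6 and 47.0 CPM with compound 5, and 44.4 and 37.9 CPM with compound 6. Every treated library was thus far below both control libraries, while the libraries of compounds 5 and 6 lay within the same range. In bulk RNA, fewer cells of a kind and less RNA per cell cannot be told apart. The log2-fold change against DMSO was −1.16 ± 0.16 with compound 4 (SE, 95% interval −1.51 to −0.80, adjusted p = 0.005 in edgeR's quasi-likelihood test). With compound 5 it was −0.91 ± 0.16 (−1.26 to −0.56, adjusted p = 0.012), and with compound 6 it was −0.92 ± 0.16 (−1.27 to −0.56, adjusted p = 0.048). EBP therefore fell 2.23-fold, 1.88-fold and 1.89-fold with compounds 4, 5 and 6. The change with compound 6 was close to the threshold, and with the replicate block it was −0.92 with an adjusted p of 0.057.

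SC5D, which works with cytochrome b5 as its electron carrier, was at 72.3 and 73.9 CPM in the control libraries. With compound 4 it was at 43.1 and 32.5 CPM, with compound 5 at 33.4 and 31.9 CPM, and with compound 6 at 47.5 and 41.4 CPM. The control libraries and those of compound 5 each agreed within 2 CPM of one another, and the 2 groups lay far apart. With compound 5 the log2-fold change of SC5D was −1.16 ± 0.15 (−1.49 to −0.83, adjusted p = 0.0047). With compound 4 it fell by 0.95 ± 0.15 on the log2 scale (95% interval of the change −1.28 to −0.63, adjusted p = 0.0068). With compound 6 the difference was −0.72 ± 0.15 (−1.05 to −0.39), with a p of 0.00067 in edgeR before adjustment and 0.058 after it. Both libraries of compound 6 were still below both control libraries, at a mean of 60.8% of the control level, and with DESeq2 the difference passed the threshold (−0.73, adjusted p = 0.0035).

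DHCR7, which takes its electrons from NADPH, was at 375 and 332 CPM in the control libraries. It was at 152 and 104 CPM with compound 4, at 101 and 138 CPM with compound 5, and at 199 and 166 CPM with compound 6. Both libraries of compound 6 thus lay above all libraries of compounds 4 and 5, and below the control. The log2-fold change was −1.47 ± 0.20 with compound 4 (−1.92 to −1.01, adjusted p = 0.005) and −1.56 ± 0.20 with compound 5 (−2.02 to −1.11, adjusted p = 0.0047). These are a 2.77-fold and a 2.96-fold decrease. With compound 6 the value was −0.95 ± 0.20 (−1.40 to −0.50), with a p of 0.00084 in edgeR before adjustment and 0.058 after it. With DESeq2 it passed the threshold (−0.96, adjusted p = 5.4e-05). DHCR7 was called with compounds 4 and 5 in all 14 alternative fits with a test.

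**Figure D1:**
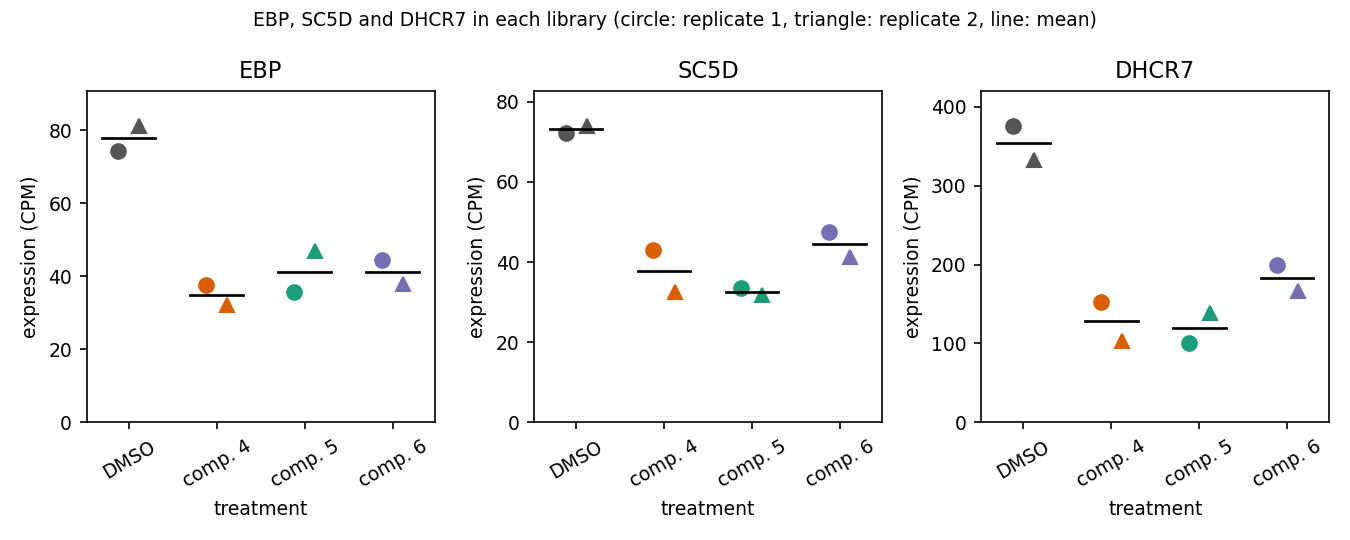
Expression of EBP, SC5D and DHCR7 in CPM (y axis) in each of the 8 libraries, by treatment (x axis), with circles for replicate 1, triangles for replicate 2 and a line at the mean of the group. Every treated library lies below both DMSO libraries, and for DHCR7 the libraries of compound 6, at 199 and 166 CPM, lie above those of compounds 4 and 5.

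The 3 genes were chosen with earlier results of these data known. Counted over them, compound 4 had 3 of 3 past the threshold and lower, where 3.91% of all genes tested were called lower and 5.6% higher. Compound 5 also had 3 of 3 past the threshold and lower, where 2.95% of all genes were called lower and 5.35% higher. Compound 6 had 1 of 3, where 0.0821% of all genes, 11 in number, were called lower and 0.493% higher. EBP was one of the 6 genes, 0.0448% of those tested, that were called lower with each compound. The libraries did not overlap with those of the control for any of the 3 genes, a pattern found in the same direction for 28% of all genes with compound 4, 28.5% with compound 5 and 26% with compound 6. All 6 treated libraries were below both control libraries for 11.7% of all genes.

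Ordered by log2-fold change from the lowest among 13400 genes, DHCR7 had rank 121 with compound 4, 129 with compound 5 and 174 with compound 6. EBP had rank 256, 646 and 195, and SC5D rank 421, 318 and 381. With compound 6, where few genes passed the threshold, at most 2.84% of all genes had a lower value than any of the 3. The comparisons share the DMSO libraries, so they are not independent of each other. Library DMSO 2 bore on several calls: without it, the adjusted p was 0.067 for EBP and 0.081 for SC5D with compound 4, and 0.12 and 0.054 with compound 5. Without DMSO 1, EBP with compound 5 had an adjusted p of 0.068.

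Direct comparisons between the compounds asked whether the 3 genes responded by different amounts, with each compound at its own IC50. Between compounds 4 and 5, which both carry tert-butyl groups but differ in the bridge and in the other groups on the rings, 0 of the 3 genes passed the threshold in edgeR and 0 had an unadjusted p under 0.05, where 0.313% of all genes passed the threshold. The difference, compound 4 minus compound 5, was −0.25 for EBP (−0.61 to 0.11, adjusted p = 0.46), 0.21 for SC5D (−0.12 to 0.54, adjusted p = 0.51) and 0.10 for DHCR7 (−0.35 to 0.54, adjusted p = 0.85). The libraries of these 2 groups overlapped for all 3 genes. Over all 13400 genes, 2177 had an unadjusted p under 0.05 in edgeR between these compounds.

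Between compounds 4 and 6, which differ in the tert-butyl or cyclohexyl groups, 0 of the 3 genes and 0% of all genes passed the threshold in edgeR, while 945 genes had an unadjusted p under 0.05. EBP differed by −0.24 (−0.60 to 0.12, adjusted p = 0.8) and SC5D by −0.24 (−0.57 to 0.10, adjusted p = 0.78). For DHCR7 the difference was −0.52, with an interval of −0.97 to −0.07 that does not include 0, and its p was 0.028 in edgeR before adjustment and 0.61 after it. DHCR7 was lower in both libraries of compound 4 than in both of compound 6. So was EBP, but only just, at 37.6 CPM in replicate 1 of compound 4 against 37.9 CPM in replicate 2 of compound 6. Counting alone gives these 2 values a coefficient of variation of 4.99% and 5%. The share of all genes separated in this way was not counted for pairs of compounds.

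Compounds 6 and 5 were the pair with the most genes called, 1.03% of all genes tested, but 0 of the 3 genes passed the threshold. SC5D and DHCR7 had an unadjusted p of 0.014 and 0.013 in edgeR, where 2483 of all 13400 genes had one under 0.05. DHCR7 was higher with compound 6 than with compound 5 by 0.61 on the log2 scale (0.16 to 1.06, adjusted p = 0.15), and SC5D by 0.44 (0.11 to 0.78, adjusted p = 0.16). For both genes the libraries of the 2 compounds did not overlap, a pattern whose share over all genes was not counted. EBP, in contrast, had a difference of −0.01 with an interval of −0.37 to 0.35 (adjusted p = 0.98), and its libraries overlapped. With DESeq2, DHCR7 passed the threshold in this comparison (0.60, adjusted p = 0.043).

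**Figure D2:**
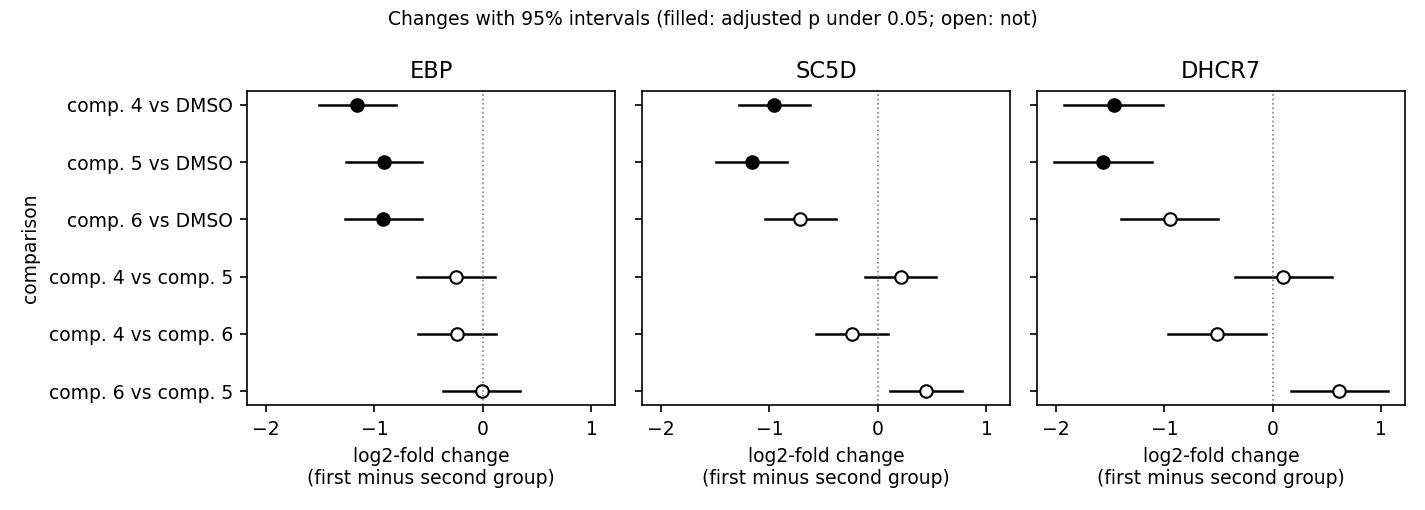
Log2-fold changes (x axis) of EBP, SC5D and DHCR7 in the 6 comparisons (y axis), with 95% intervals from edgeR and filled points for an adjusted p under 0.05. The intervals of all 9 comparisons against DMSO lie below 0, and those between compounds lie nearer to 0, with SC5D and DHCR7 above it for compound 6 against compound 5.

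The balance between the 3 genes was read from ratios within a library, which do not depend on the scaling of libraries. DHCR7 per kilobase was 2.92 and 2.37 times EBP in the control libraries. It was 2.35 and 1.86 times EBP with compound 4, 1.64 and 1.70 times with compound 5, and 2.60 and 2.54 times with compound 6. The ratio was thus lower than in both control libraries with compounds 4 and 5, and between the control libraries with compound 6. For replicate 1 of compound 4 the gap was small, 2.35 against 2.37, where counting alone gives EBP a coefficient of variation of 4.99% and 3.21%. The control libraries differed more from each other, and the ratios were not tested.

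DHCR7 was 6.95 and 6.01 times SC5D in the control libraries and 4.74 and 4.26 times with compound 4. It was 4.03 and 5.80 times SC5D with compound 5, and 5.62 and 5.38 times with compound 6, so all 6 treated libraries were lower. The smallest gap, 5.80 against 6.01, was near the counting error of SC5D in these 2 libraries, 4.22% and 3.37%. EBP was 2.38 and 2.54 times SC5D in the control libraries, and replicate 2 of compound 5 stood out with 3.4 times, against 2.46 times in replicate 1. Over the 3 genes together, the level per kilobase was 134 and 127 CPM in the control libraries and between 44.1 and 74.9 CPM in the treated ones. DHCR7 made up 67.3% and 63.0% of this sum in the control, 61.1% and 56.4% with compound 4, 53.8% and 56.8% with compound 5, and 64.0% and 63.3% with compound 6.

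**Figure D3:**
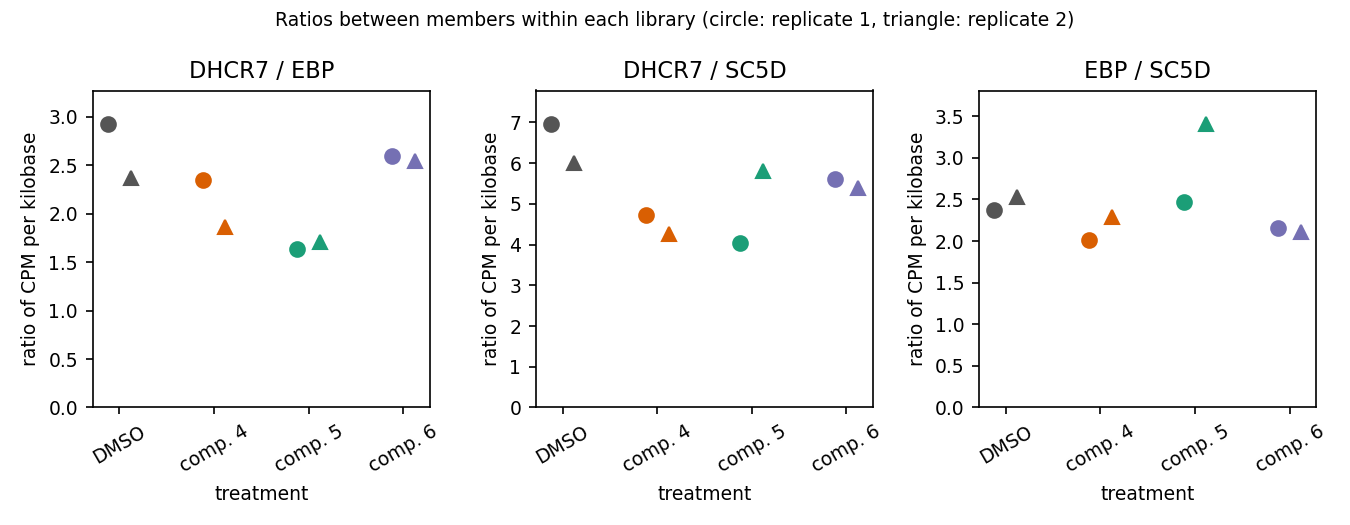
Ratios between DHCR7, EBP and SC5D in CPM per kilobase of exon (y axis) within each library, by treatment (x axis), with circles for replicate 1 and triangles for replicate 2. DHCR7 over EBP is 1.64 and 1.70 with compound 5 against 2.92 and 2.37 with DMSO, and EBP over SC5D is highest, at 3.4, in replicate 2 of compound 5.

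The replicates of a treatment differed in how far the 3 genes were from the control mean. In log2 CPM with 0.5 CPM added, replicate 2 of compound 4 was lower than replicate 1 for every gene, with −1.26 against −1.04 for EBP, −1.16 against −0.76 for SC5D and −1.77 against −1.21 for DHCR7. With compound 5 it was replicate 1 that was lower for EBP (−1.11 against −0.72) and DHCR7 (−1.81 against −1.35), while SC5D was at −1.12 and −1.18. With compound 6, replicate 2 was lower for all 3 genes, at −1.03 for EBP, −0.81 for SC5D and −1.08 for DHCR7. The median of the other 19 enzymes of the pathway was lower in the same replicate of each treatment as DHCR7, at −1.52 and −1.69 in the libraries of compound 4, −1.79 and −1.28 in those of compound 5, and −0.83 and −0.87 in those of compound 6.

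The 3 genes were set beside the enzymes that come before them. The mevalonate arm leads from acetyl-CoA to squalene. Of 9 genes listed for it, 8 were called lower with compound 4, 8 with compound 5 and 3 with compound 6, and none higher. Of all genes tested, 3.91%, 2.95% and 0.0821% were called lower with compounds 4, 5 and 6. HMGCS1, which makes HMG-CoA, had the lowest value of the arm with compounds 4 and 5, at −2.17 (adjusted p = 8.4e-05) and −2.22 (adjusted p = 0.00019). PMVK, the phosphomevalonate kinase, was the exception with log2-fold changes of 0.09, −0.53 and 0.02, none past the threshold. The medians of the arm were −1.91, −1.54 and −0.90, where the median of all genes tested was 0.01, 0.00 and 0.02.

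Between squalene and the removal of the methyl groups at C4, 9 of 9 enzymes were called lower with compound 4. With compound 5 it was 8 and with compound 6 it was 2, and none was called higher with any compound. The shares called lower among all genes tested were 3.91%, 2.95% and 0.0821%. MSMO1, the sterol methyl oxidase, was lowest, at −2.16, −2.61 and −1.11, the last of which was not past the threshold. LBR, the lamin B receptor with sterol reductase activity, was highest, at −0.56, −0.36 and −0.34, and was past the threshold with compound 4 only. The medians were −1.58, −1.52 and −0.86. Among the enzymes called with all 3 compounds, as EBP was, were ACAT2, the cytosolic thiolase, HMGCS1, the squalene epoxidase SQLE and the lanosterol demethylase CYP51A1.

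EBP and SC5D were among the less changed enzymes of the pathway with compounds 4 and 5. Ranked from the lowest among all 22 enzymes, SC5D was at place 20 and EBP at 17 with compound 4, and they were at places 18 and 19 with compound 5. DHCR7 was nearer to the middle, at places 12 and 9. With compound 6, DHCR7 was at place 9, EBP at 10 and SC5D at 19. The median over the 3 genes was −1.16 with compound 4, −1.16 with compound 5 and −0.92 with compound 6, and that over the other 19 enzymes was −1.59, −1.53 and −0.86. These ranks are a description, and the difference from the other enzymes was not tested.

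**Figure D4:**
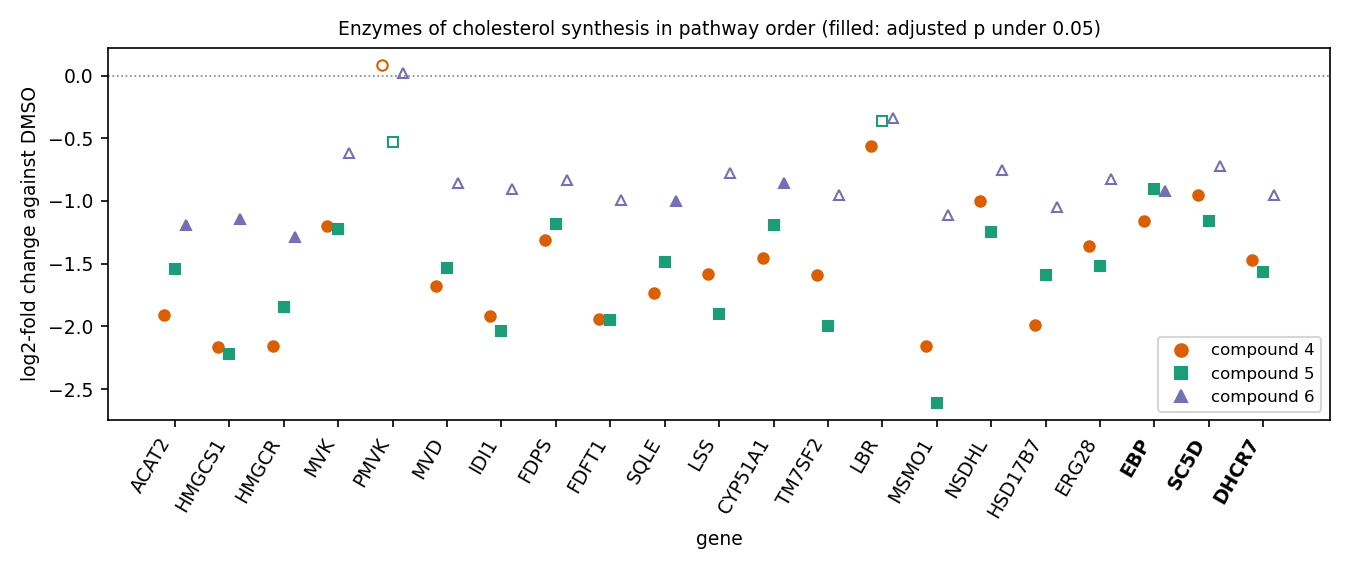
Log2-fold changes against DMSO (y axis) of enzymes of cholesterol synthesis in the order of the pathway (x axis), with circles, squares and triangles standing for compounds 4, 5 and 6, filled where the adjusted p was under 0.05. EBP, SC5D and DHCR7 stand at the right end, with values between −1.56 and −0.72, while PMVK stands near 0 with compounds 4 and 6.

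Proteins built like the 3 enzymes were looked at next. Among them, TM7SF2, LBR and MSMO1 are enzymes of the pathway that were already counted above. Of 10 structural relatives, 7 passed the filter, and 4 were called lower with compound 4, 3 with compound 5 and 0 with compound 6. The shares of all genes called lower were 3.91%, 2.95% and 0.0821%. With compound 6, 4 of the relatives, all lower, had an unadjusted p under 0.05 in edgeR, as had 2490 of all 13400 genes. TMEM97 was the only called relative that is not one of these pathway enzymes. DHCR7 shares its reductase fold with TM7SF2 and LBR, which both reduce a sterol double bond earlier in the pathway. TM7SF2 was at 56.3 and 52.7 CPM in the control libraries, 21.8 and 14.5 CPM with compound 4, 12.1 and 15.0 CPM with compound 5, and 31.0 and 25.2 CPM with compound 6. Its log2-fold changes of −1.59, −2.0 and −0.95 were larger than those of LBR with every compound.

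Relatives of EBP differed among themselves. TMEM97, the sigma-2 receptor, was at 202 and 185 CPM in the control libraries, 107 and 82.1 CPM with compound 4, 104 and 108 CPM with compound 5, and 123 and 102 CPM with compound 6. It had log2-fold changes of −1.03 with compound 4 and −0.86 with compound 5, both past the threshold, and its value with compound 6, −0.78, did not pass the threshold. EBPL, the EBP-like protein, had −0.24, −0.11 and −0.25, and TM6SF2 had −0.37, −0.59 and 0.21, none past the threshold. Among the relatives of SC5D, FAXDC2 had −0.01, −0.38 and 0.19, none past the threshold, in contrast to MSMO1. TM6SF1, CH25H and AGMO had too few counts to be tested. The medians over the 7 genes were −0.56, −0.59 and −0.34.

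The electron carriers of SC5D and DHCR7 were read against the share of all genes called, which was 3.91% lower and 5.6% higher with compound 4, 2.95% and 5.35% with compound 5, and 0.0821% and 0.493% with compound 6. Of 7 genes for cytochrome b5, its reductases and cytochrome P450 reductase, none was called with compound 4 or 6. With compound 5, 1 was called lower and 1 higher. Without a call, 3 genes with compound 4 (1 lower, 2 higher) and 1 lower gene with compound 6 had an unadjusted p under 0.05 in edgeR. Of all 13400 genes, 3688 and 2490 had such a p with these compounds. POR, the cytochrome P450 reductase, was at 555 and 530 CPM in the control libraries and at 798 and 727 CPM with compound 5, a log2-fold change of 0.49 (adjusted p = 0.021). CYB5B, the outer mitochondrial membrane form of cytochrome b5, was at 184 and 202 CPM in the control libraries and at 114 and 142 CPM with compound 5 (−0.59, adjusted p = 0.023). Its values with compounds 4 and 6 were −0.40 and −0.46. CYB5A, the other cytochrome b5 gene, was at 125%, 101% and 94.3% of the control mean with compounds 4, 5 and 6. The reductase gene CYB5R3 was at 88.0%, 88.0% and 83.3%, and neither gene passed the threshold with any compound. CYB5R1 was the highest of the carriers with compound 4, at 0.39, and with compound 6, at 0.23. The medians over the 7 genes were 0.18, 0.01 and −0.06.

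**Figure D5:**
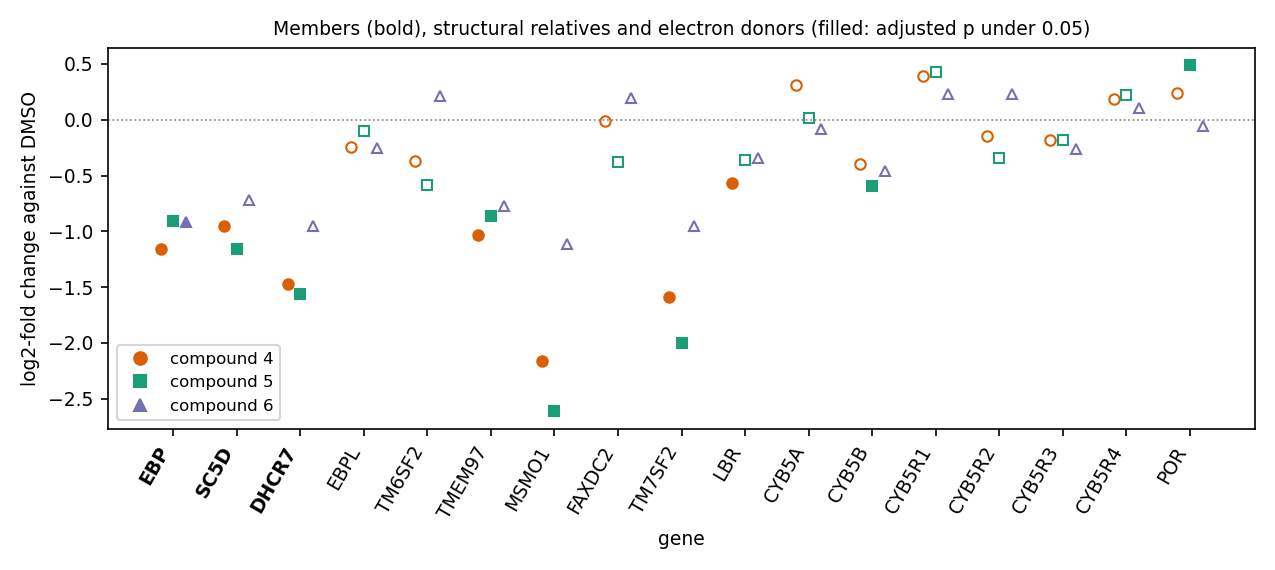
Log2-fold changes against DMSO (y axis) of EBP, SC5D and DHCR7 (bold), of 7 genes of like structure and of 7 genes for electron carriers (x axis), with filled symbols for an adjusted p under 0.05. TM7SF2, TMEM97 and MSMO1 lie in or below the range of the 3 genes, whereas EBPL and the electron carriers lie nearer to 0, with POR at 0.49 for compound 5.

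The genes that control SREBP-2 were also tested. Of 8 genes with enough counts, 2 were called lower with compound 4, 3 with compound 5 and 0 with compound 6. None was called higher. Of all genes tested, 3.91%, 2.95% and 0.0821% were called lower. With compound 6, 1 lower and 1 higher gene had an unadjusted p under 0.05 in edgeR, as had 2490 of all 13400 genes. SREBF2, which encodes SREBP-2 itself, changed by −0.55 with compound 4 (adjusted p = 0.015) and −0.64 with compound 5 (adjusted p = 0.011), while its value with compound 6 was −0.24 (adjusted p = 0.26). STARD4, a sterol carrier, was lowest, at −1.01, −1.41 and −0.31, of which the first and second passed the threshold. MBTPS2, a protease that releases SREBP, was called with compound 5 (−0.45, adjusted p = 0.047). MBTPS1, the other protease, was at 0.25, 0.35 and 0.20 and did not pass the threshold. The medians were −0.05, −0.06 and −0.02, close to those of all genes. INSIG1 was listed with no count in any library and was not tested.

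The genes whose levels over the 8 libraries were most like those of EBP, SC5D and DHCR7 were found by Pearson's r of log2(CPM + 0.5). The values are descriptions, since the points are the same 4 groups of libraries and any gene that differs between control and treated cells will have a high r. For EBP, CETN2, which encodes a centrin, had r = 0.996, followed by CBX1 (0.989), GLYCTK (0.983) and KIF20B (0.983). CETN2 had log2-fold changes of −1.17, −0.93 and −0.90 with compounds 4, 5 and 6, beside −1.16, −0.91 and −0.92 for EBP. For SC5D the leading genes were ERG28, the scaffold of the demethylation complex (r = 0.984), TM7SF2 (0.978), CPSF3 (0.978), SPTLC3 (0.977) and RDH11 (0.973). For DHCR7 they were GANAB (0.99), PTK7 (0.988), TTC30B (0.988), PTPRU (0.987) and TSPY26P (0.987).

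Among the 100 genes most like each of the 3, 14 of the 19 other enzymes of the pathway were found for DHCR7, 8 for SC5D and 7 for EBP. Between the 3 genes, r was 0.967 for SC5D and DHCR7, 0.926 for EBP and DHCR7, and 0.887 for EBP and SC5D. SPTLC3, a subunit of serine palmitoyltransferase, had log2-fold changes of −1.0, −1.26 and −0.67, and RDH11, a retinol dehydrogenase, had −0.64, −0.83 and −0.35. Both passed the threshold with compounds 4 and 5, but not with compound 6. CPSF3 and GANAB, in contrast, had small changes in spite of a high r, at most −0.24 and −0.37 in size, and neither passed the threshold with any compound.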

How the data were processed

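RNA from 8 libraries was sequenced after isolation of mRNA with a directional kit. The authors quantified reads with Salmon 1.5.0 against GENCODE 38, summarized them to genes with tximeta 1.16.0 and deposited whole-number counts without normalization (submitters' notes: FastQC 0.12.0, DESeq2 1.38.3, build GRCh38). The strand setting of the counting is not given in the sources used here. Totals were 9791659 to 17814595 counts per library. Replicate 1 of DMSO and of compound 4 each came from merged runs.

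Counts were analysed with edgeR 4.0.16 in R 4.3.3: TMM, filterByExpr with a minimum count of 10, and the quasi-likelihood test with all 8 libraries fitted together, with Benjamini-Hochberg adjustment over 13400 genes and a threshold of 0.05. The SE is the log2-fold change divided by the square root of F. The 95% intervals use the degrees of freedom of the fit. An exact permutation test of 2 against 2 cannot go below a two-sided p of 0.333 and was not used. The alternatives were DESeq2 1.42.0, the replicate block, a fit of the 4 libraries of a comparison alone, size factors of DESeq2 in edgeR, no filter, a minimum of 10 counts in all libraries, and dropping single libraries or replicate numbers. The code was tested on simulated data. Positions are from GENCODE 29, and windows before the starts from the RefSeq table.

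EBP, SC5D and DHCR7 and all gene lists (mevalonate arm, squalene to C4-demethylation, structural relatives, electron carriers, SREBP control genes, fates of cholesterol, cell markers) were chosen with earlier results of these data known. Named were the 3 genes, the lowest and highest member of each list, all tested structural relatives, list members called with all compounds, the 5 genes most like each of the 3, and neighbours. Genes beyond this rule were chosen after their values were seen. Some genes that the rule takes are not reported here. The main fit used no pairing, and only the replicate block, an alternative, paired the replicates by the day in the labels. The correlation of replicate 2 minus replicate 1 between groups was −0.163 to 0.302 over 6 pairs of groups. Since treatment lasted 24 h throughout, the labelled day served as replicate number.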

Additional observations from a re-analysis of the deposited data

How the results depend on the processing

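Over the alternatives, 144 of 144 values of EBP, SC5D and DHCR7 against DMSO stayed negative. With compound 6, SC5D and DHCR7 passed the threshold with DESeq2 (−0.73 and −0.96, adjusted p = 0.0035 and 5.4e-05), with only the 4 samples compared (−0.74 and −0.97, 0.0086 and 0.0055), with no filter (−0.73 and −0.96, 1e-04 and 2.4e-11) and with at least 10 counts in every sample (−0.73 and −0.96, 0.044 and 0.044), so 3 genes were called in each. With the replicate block, EBP with compound 6 was −0.92 (adjusted p = 0.057) and 0 of 3 genes were called. The block changed no other call of the 3 genes. DHCR7 passed the threshold for compound 6 against 5 with DESeq2 (0.60, 0.043) and no filter (0.59, 0.00048), and for compound 4 against 6 with no filter (−0.51, 0.013), with 1 gene called in each. EBP for compound 6 against 5 turned to 0.0031 with at least 10 counts in every sample. The cause was not tested.

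Leaving out a library or a replicate number gave, with compound 4, −1.32 to −0.97 for EBP, −1.18 to −0.74 for SC5D and −1.79 to −1.21 for DHCR7. With compound 5 the ranges were −1.12 to −0.74, −1.21 to −1.10 and −1.89 to −1.26, and with compound 6 they were −1.09 to −0.74, −0.83 to −0.60 and −1.10 to −0.82. For compound 4 against 5 they were −0.54 to 0.0769, −0.0092 to 0.39 and −0.42 to 0.60, for 4 against 6 −0.36 to −0.11, −0.45 to −0.05 and −0.82 to −0.27, and for 6 against 5 −0.31 to 0.31, 0.34 to 0.54 and 0.27 to 0.98. Between 1 and 3 genes were called with compounds 4 and 5 and between 0 and 3 with compound 6. Calls were lost without compound 4 replicate 2 (EBP and SC5D with compound 4, 0.052 and 0.054), without compound 5 replicate 1 (EBP with compound 5, 0.075) and, for EBP with compound 6, without DMSO 1 (0.15), DMSO 2 (0.44), compound 6 replicate 1 (0.073) or replicate 2 (0.38). Without any one library of compound 4 or 5, SC5D and DHCR7 with compound 6 were called (highest adjusted p 0.044). Within day 1 and day 2 there was 1 library per group and no test.

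Over all genes, compound 6 had 77 calls, 47 with DESeq2's size factors and 1023 with only the 4 samples compared. Compound 4 against 5 had 42, 128 with the block and 10 with only the 4 samples. Compound 6 against 5 had 138, 269 with the block and 49 with only the 4 samples. Counting error was at most 5% for EBP, SC5D and DHCR7, and groups of 2 libraries limit the estimate of the spread.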

Other observations

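The fates of the sterols that these enzymes make were covered by 7 genes, of which CYP27A1, SOAT1 and SOAT2 had enough counts to be tested. SOAT1 and SOAT2, which esterify cholesterol for storage and export, fell with compound 4, with log2-fold changes of −0.49 (adjusted p = 0.037 in edgeR) and −0.43 (adjusted p = 0.048). Of all genes tested, 3.91% were called lower with compound 4. With compound 5 the values of SOAT1 and SOAT2 were −0.17 and −0.09, and with compound 6 they were −0.23 and −0.34. In both cases 0 of the 3 genes were called, and 0 and 1 had an unadjusted p under 0.05 in edgeR. Over all 13400 genes, 3811 and 2490 had such a p. CYP27A1, the sterol hydroxylase of bile acid synthesis, had −0.04, 0.06 and −0.17, none past the threshold. The medians of the 3 genes were −0.43, −0.09 and −0.23.

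The genes next to EBP, SC5D and DHCR7 on the chromosome were read from the same fit. PORCN, 344 bases from EBP, had log2-fold changes of 0.12, −0.06 and 0.08 with compounds 4, 5 and 6, and TBC1D25, on the other side, had 0.51, 0.47 and 0.31, none past the threshold. NADSYN1, which starts 241 bases beyond DHCR7 on the opposite strand, had −0.32, −0.39 and −0.09 (adjusted p = 0.2, 0.12 and 0.78). An antisense gene, ENSG00000254682, overlaps DHCR7 and had at most 47 counts in a library, where DHCR7 had at least 1223, and reads from the overlap cannot be told apart without strand. TBCEL and SORL1 beside SC5D and SHANK2 beside DHCR7 had values between −0.26 and 0.29, none past the threshold.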
